A study of Homo sapiens with 6 samples.

Results

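RASSF1, RARB, MGMT, GSTP1, DAPK1, CCND2, HIC1, RUNX3 and BRCA1 are tumor suppressor genes that are classically silenced by promoter methylation in breast and other carcinomas. They were chosen by symbol, and 9 of 9 were present among the 17100 transcripts of the count table. Their expression was compared between 3 libraries of vehicle-treated MDA-MB-231 cells and 3 libraries of MDA-MB-231 cells exposed to 1 µM guadecitabine (SGI-110) for 96 h and then kept without drug for 24 h. MDA-MB-231 cells, a long-established line from a human breast carcinoma, lack hormone receptors and HER2 amplification. All 6 libraries came from this single line in culture, and the replicates of each group came from 3 independent experiments. In such bulk RNA, fewer cells expressing a gene and less RNA per cell cannot be told apart.

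Cytosine methylation at the CpG sites of a promoter is kept through cell division by DNA methyltransferases, and a densely methylated CpG island is usually not transcribed. Guadecitabine releases decitabine, which is built into newly made DNA and traps these enzymes, so that methylation is lost as cells divide. The 9 genes act in different ways: HIC1, RUNX3 and RARB regulate transcription, RASSF1, DAPK1 and CCND2 act in growth and death signaling and the cell cycle, and MGMT, BRCA1 and GSTP1 act in DNA repair and detoxification. Methylation itself was not analysed here.

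The sequences upstream of RASSF1, RUNX3 and MGMT are shown as examples of a gene called higher, a gene whose call turned on 1 library and a gene called lower. CpG sites, where the methyltransferases mainly act, are in capitals in the 250 bp before the first base of the counted transcript, read from GRCh37 (the assembly of hg19) in the direction of the gene. RASSF1 lies on chromosome 3 from 50367217 to 50378367 on the minus strand, and chr3:50378368-50378617 has 20 CpG sites. RUNX3 lies on chromosome 1 from 25226002 to 25291501 on the minus strand, and chr1:25291502-25291751 has 13 CpG sites. MGMT lies on chromosome 10 from 131265454 to 131565783 on the plus strand, and chr10:131265204-131265453 has 37 CpG sites.
RASSF1: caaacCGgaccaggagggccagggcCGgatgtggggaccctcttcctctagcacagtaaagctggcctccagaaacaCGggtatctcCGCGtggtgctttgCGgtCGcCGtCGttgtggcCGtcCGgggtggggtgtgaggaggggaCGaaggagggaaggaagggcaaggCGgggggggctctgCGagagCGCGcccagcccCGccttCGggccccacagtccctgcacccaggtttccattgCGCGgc
RUNX3: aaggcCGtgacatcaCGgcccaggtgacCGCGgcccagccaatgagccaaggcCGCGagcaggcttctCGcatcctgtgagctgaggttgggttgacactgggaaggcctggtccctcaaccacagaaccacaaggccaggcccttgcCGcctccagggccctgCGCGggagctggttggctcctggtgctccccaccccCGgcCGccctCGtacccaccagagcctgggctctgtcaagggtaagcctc
MGMT: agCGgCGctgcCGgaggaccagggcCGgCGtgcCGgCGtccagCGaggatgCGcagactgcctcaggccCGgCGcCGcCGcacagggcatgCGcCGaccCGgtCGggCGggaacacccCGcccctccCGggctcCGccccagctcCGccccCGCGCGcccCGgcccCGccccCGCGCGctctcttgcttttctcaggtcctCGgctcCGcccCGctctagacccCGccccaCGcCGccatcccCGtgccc

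The counted transcript does not always start at the most CpG-rich start of its gene. Over a window of 250 bp before and 50 bp after the start, all 17100 transcripts had a median of 22 CpG sites. MGMT had 44, a number that only 6.6% of all windows reached, and HIC1 had 35, a number that 19.3% reached. RASSF1 had 23, GSTP1 had 20, CCND2 and RUNX3 had 15 each, and BRCA1 had 11. DAPK1 had 5 and RARB had 3, so that their counted transcripts start outside CpG-dense sequence. The motif GGGCGG, read on both strands, was present in the windows of RASSF1, MGMT and RUNX3 and in 61.0% of all windows. The motif CGCG, which reads the same on both strands, was present in RASSF1, MGMT, GSTP1, CCND2, HIC1 and RUNX3 and in 67.3% of all windows.

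Most members have further starts of coding transcripts in the GENCODE annotation, and a count over exons does not tell the starts apart. RUNX3 has another start 34734 bp downstream, where the window has 38 CpG sites, and 88.5% of the exon bases of the counted transcript are shared with transcripts from that start. RASSF1 has a start 3472 bp downstream with 33 CpG sites, and 79.3% of its exon bases are shared. DAPK1 has a start 1307 bp downstream with 33 CpG sites, and 98.7% of its exon bases are shared. The annotated GSTP1 start with 34 CpG sites lies 147 bp downstream of the deposited one. RARB has a start with 34 CpG sites 345009 bp upstream and one with 10 CpG sites 253554 bp downstream. HIC1 has starts 945 bp upstream and 1120 bp downstream with 37 and 33 CpG sites, and 100% of its exon bases are shared. MGMT, with 2 coding transcripts, has a single group of starts.

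**Figure D1:**
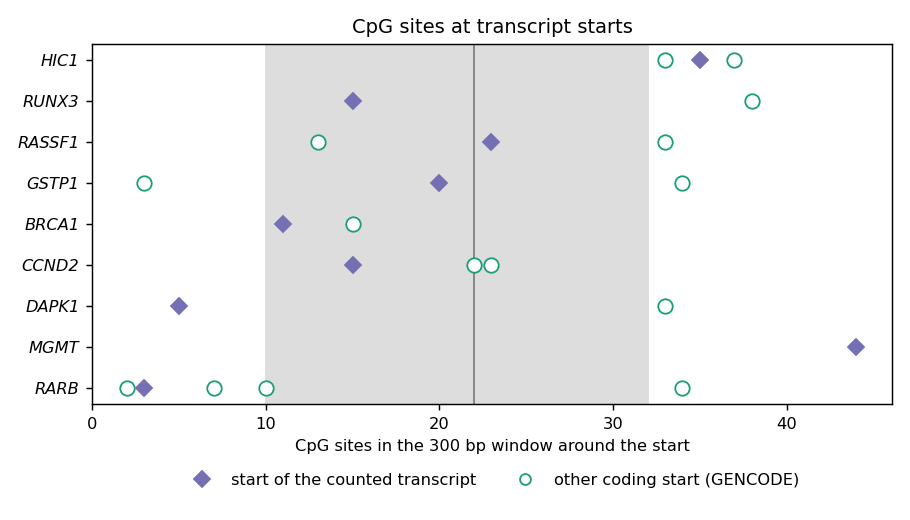
Number of CpG sites in the 300 bp window (x axis) around the start of the counted transcript (diamonds) and around other coding starts over 100 bp away (circles) for each gene, with the interquartile range of all 17100 transcripts in grey and their median as a line. MGMT has 44 CpG sites at its start, while RUNX3, RASSF1, DAPK1, GSTP1 and RARB have over 30 only at another start.

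The vehicle libraries held 17602570 to 22277442 counts and the guadecitabine libraries 8792127 to 21410849, the smallest being guadecitabine replicate 2. Vehicle replicate 3 stood apart, with no reads for only 20 transcripts, where vehicle replicates 1 and 2 had none for 2498 and 2517. Among 2776 transcripts of at least 200 bp of exon with at most 1 count in each of those libraries, it had a median of 7.77 reads per kb of exon, and 2720 had more than 3 counts. The cause was not tested. Results of the 9 genes are given with and without this library, and those of other genes where it changes the call or moves the fold by over 1.5 times. Of 6 genes known to be expressed in MDA-MB-231 cells, VIM and CD44 among them, 6 were expressed in each library, while of 8 luminal or HER2 markers listed as low in this line, ESR1, PGR and FOXA1 had at most 4 counts outside vehicle replicate 3 and CDH1 was low. The other 4 genes of that list were expressed, KRT19 at 908 CPM, ERBB2 at 95.2, GATA3 at 20.4 and EPCAM at 18.6 on average in vehicle.

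Levels are given as TMM-normalized counts scaled to the library total (CPM), and changes as log2 fold changes of guadecitabine over vehicle from the quasi-likelihood test of edgeR. A gene was called at an adjusted p below 0.05, adjusted by Benjamini-Hochberg over the 13322 genes tested. Of the 9 members, 8 were tested, and RARB was removed by the filter on low counts. HIC1 and RASSF1, 2 of the 8, were called higher, where 19.3% of all genes tested were higher. MGMT, 1 of the 8, was called lower, where 18.4% of all genes tested were lower. The median log2 fold change was 0.36 for the 8 members and 0.02 for all genes tested. When vehicle replicate 3 was left out, 3 members were called higher, with RUNX3 added, and 1 lower, where 22.6% and 19.4% of all genes tested were higher and lower.

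The groups of libraries did not overlap in 4 members. All guadecitabine libraries were above all vehicle libraries for HIC1, RASSF1 and RUNX3, as for 26.7% of all genes tested, and below them for MGMT, as for 24.9%. Each of these 4 genes had p = 0.1 in a two-sided exact permutation test, which with 3 against 3 libraries cannot go lower.

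**Figure D2:**
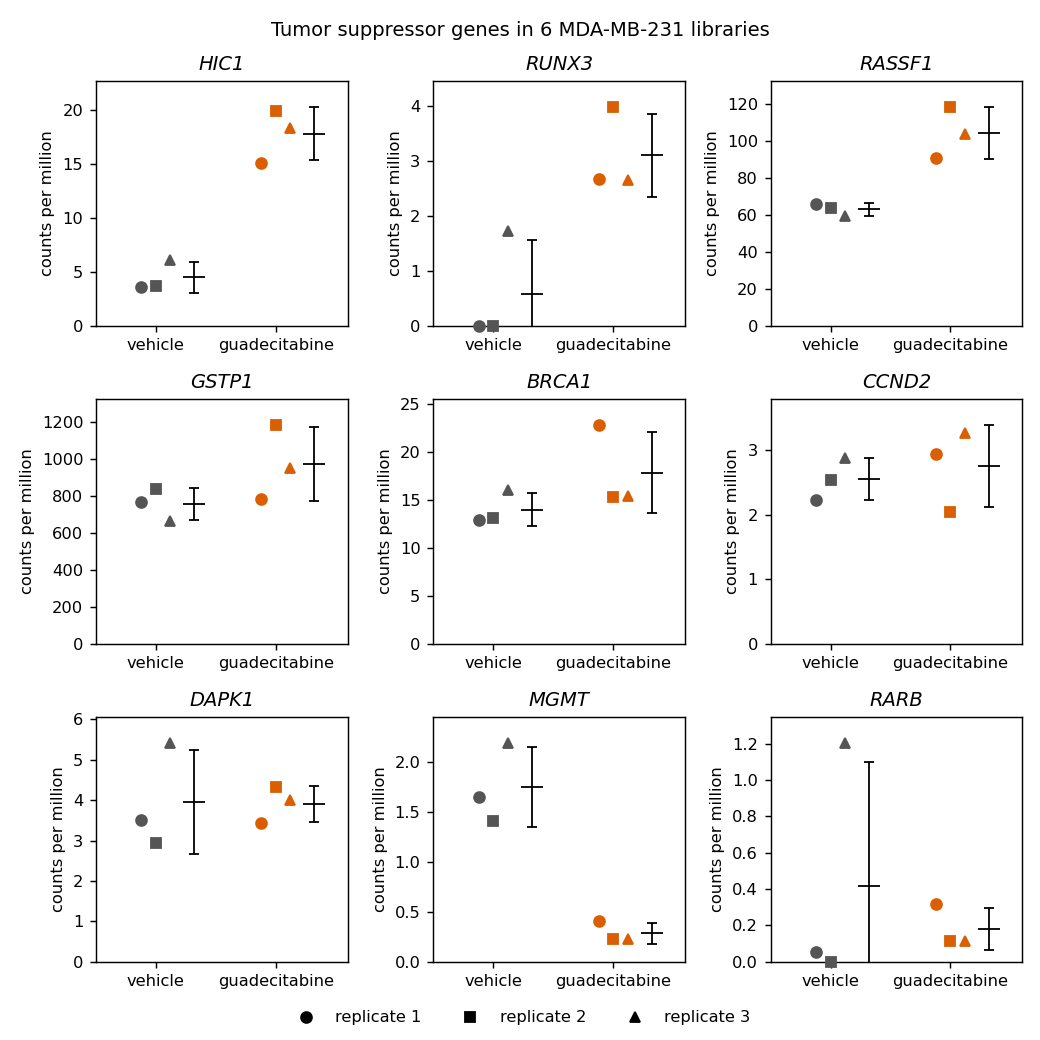
TMM-normalized counts (CPM, y axis, linear, from 0) of the 9 genes in vehicle (grey) and guadecitabine (orange) libraries, with a symbol shape for each replicate number and the mean and SD as a black line and bar. HIC1, RUNX3 and RASSF1 lie higher and MGMT lower in each guadecitabine library, and vehicle replicate 3 (triangle) is the highest vehicle library for 7 genes, RASSF1 and GSTP1 being the exceptions.

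HIC1, a zinc finger transcriptional repressor on chromosome 17 from 1958393 to 1962981 on the plus strand, had the largest called rise of the members. It had 67, 63 and 143 reads in vehicle replicates 1, 2 and 3 and 335, 176 and 326 reads in guadecitabine replicates 1, 2 and 3. Each guadecitabine library was above each vehicle library, although guadecitabine replicate 2 was sequenced least deeply. HIC1 was at 4.47 ± 1.45 CPM (SD, n = 3) in vehicle and 17.8 ± 2.47 CPM (SD, n = 3) after guadecitabine. The log2 fold change was 1.97 (standard error, SE, 0.23, edgeR adjusted p = 0.000209), or 3.92-fold with a 95% interval from 2.74-fold to 5.62-fold. Of all genes tested, 3.76% had a rise at least as large. Vehicle replicate 3 had 58.2 reads more than the other vehicle libraries predict, and without it the log2 fold change was 2.28 (edgeR adjusted p = 1.18e-05). The neighboring gene SMG6 lies 151 bp from HIC1 on the other strand and was not called, with a log2 fold change of 0.15 (edgeR adjusted p = 0.288).

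RUNX3, a transcription factor of the RUNX family, had 0 reads in vehicle replicates 1 and 2 and 40 reads in vehicle replicate 3. After guadecitabine it had 59, 35 and 47 reads, or 3.10 ± 0.76 CPM (SD, n = 3). The guadecitabine libraries were above vehicle replicate 3, which was at 1.72 CPM, by a small margin and above the other vehicle libraries by a wide one. With 6 libraries the log2 fold change was 2.33 (SE 1.15, 95% interval from -0.27 to 4.94) and was not called (edgeR adjusted p = 0.143). When vehicle replicate 3 was left out, RUNX3 was called higher (edgeR adjusted p = 3.84e-05). With 0 reads in the other vehicle libraries, RUNX3 then passed the filter on low counts only through the guadecitabine libraries. A fall could not have been called there, so this call is a description. Against a floor of 3 counts in each of the other vehicle libraries its expression was at least 18.4-fold higher. Whether RUNX3 is called therefore turns on vehicle replicate 3. Its 40 reads there amount to 9.22 reads per kb. The interquartile range of transcripts near-silent in the other vehicle libraries, RUNX3 among them, was 5.46 to 11.3 reads per kb.

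RARB, a nuclear receptor for retinoic acid, was close to silent in both groups. It had 1, 0 and 28 reads in vehicle replicates 1, 2 and 3 and 7, 1 and 2 reads after guadecitabine. Outside vehicle replicate 3 the highest library was guadecitabine replicate 1, at 0.316 CPM, and a rise in RARB was not detectable at this depth. The 28 reads in vehicle replicate 3 amount to 10.3 reads per kb. RARB overlaps TOP2B on the other strand, and whether counting used strand is not given in the sources used here. Without strand, their reads cannot be told apart there. TOP2B was not called (log2 fold change -0.25, edgeR adjusted p = 0.326).

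Genes that are near-silent in vehicle replicates 1 and 2 give the background for RUNX3 and RARB. Of 2782 transcripts of any length with at most 1 count in both libraries, 338 (12.1%) had more than 3 counts in each guadecitabine library, and RUNX3 was among them while RARB was not. A mean level after guadecitabine as high as that of RUNX3 was reached by 76 of these transcripts, or 2.73%.

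**Figure D3:**
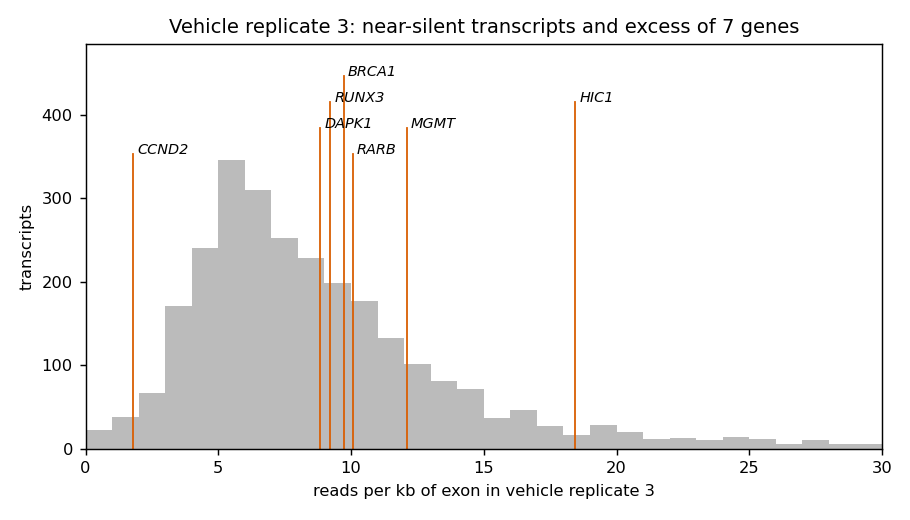
Histogram of reads per kb of exon (x axis) in vehicle replicate 3 for the 2776 transcripts near-silent in the other vehicle libraries (at most 1 count each), with orange lines at the reads per kb of 7 genes in vehicle replicate 3 beyond those that the other vehicle libraries predict. The lines of RUNX3 at 9.22 and RARB at 10.1 fall within the histogram, whose x axis ends at 30 reads per kb. Both genes are themselves among its transcripts, so their place in it is not an independent comparison. CCND2 at 1.79 and HIC1 at 18.4 mark the lowest and the highest of the 7 genes.

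RASSF1, a scaffold protein of the Hippo and Ras pathways, was expressed before treatment and rose. It had 1246, 1087 and 1383 reads in vehicle and 2008, 1043 and 1849 reads after guadecitabine. On the normalized scale these were 59.3 to 66.2 CPM in vehicle and 90.7 to 118 CPM after guadecitabine, without overlap. RASSF1 had a log2 fold change of 0.72 (SE 0.12, edgeR adjusted p = 0.00175), or 1.65-fold with a 95% interval from 1.36-fold to 1.99-fold. It was 0.68 without vehicle replicate 3 (edgeR adjusted p = 0.00298). A log2 fold change at least as high was seen in 12.8% of all genes tested. ZMYND10, also reported with promoter methylation, lies 169 bp from RASSF1 on the same strand and was at -0.81 on the log2 scale without being called (edgeR adjusted p = 0.16). TUSC2, a tumor suppressor candidate of the same region, rose, with a log2 fold change of 0.61 (edgeR adjusted p = 0.0192).

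DAPK1, a calmodulin-dependent kinase that promotes cell death, was expressed at a low level and did not pass the test. It had 66, 50 and 126 reads in vehicle and 76, 38 and 71 reads after guadecitabine. The highest and the lowest CPM were both in vehicle, at 5.41 in replicate 3 and 2.95 in replicate 2. The log2 fold change was -0.03 (95% interval from -0.70 to 0.64, edgeR adjusted p = 0.944). It was 0.26 without vehicle replicate 3 (95% interval from -0.25 to 0.76, edgeR adjusted p = 0.386), an interval that holds a rise and a small fall.

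CCND2, a D-type cyclin that activates the kinases CDK4 and CDK6, was also low and not called. It had 42, 43 and 67 reads in vehicle and 65, 18 and 58 reads after guadecitabine, and the groups overlapped. The level was 2.55 ± 0.32 CPM (SD, n = 3) in vehicle and 2.75 ± 0.63 CPM (SD, n = 3) after guadecitabine. Its log2 fold change was 0.12 (95% interval from -0.64 to 0.88, edgeR adjusted p = 0.804), and without vehicle replicate 3 it was 0.25 (edgeR adjusted p = 0.476).

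MGMT, the enzyme that removes alkyl groups from guanine in DNA, fell, against the direction of HIC1 and RASSF1. It had 31, 24 and 51 reads in vehicle and 9, 2 and 4 reads after guadecitabine. Every guadecitabine library was below every vehicle library, at 0.225 to 0.407 CPM against 1.42 to 2.19 CPM. The log2 fold change was -2.54 (SE 0.56, 95% interval from -3.81 to -1.27, edgeR adjusted p = 0.00709), or 5.81-fold lower. Summed over the libraries, 106 reads in vehicle and 15 after guadecitabine gave a ratio of 5.82 between the depth-corrected totals, with an exact 95% interval from 3.38 to 10.8 that covers counting error only. Of all genes tested, 0.586% had a log2 fold change as low. It was -2.30 without vehicle replicate 3 (edgeR adjusted p = 0.00128). The call rests on few reads, and without guadecitabine replicate 3 the adjusted p was 0.0514 with a log2 fold change of -2.39.

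BRCA1, a ubiquitin ligase subunit needed for homologous recombination, was expressed before treatment and was not called. It had 242, 222 and 373 reads in vehicle and 504, 135 and 274 reads after guadecitabine. Guadecitabine replicate 1 was at 22.8 CPM, while replicates 2 and 3 were at 15.3 and 15.4 CPM, next to vehicle replicate 3 at 16.0 CPM. The log2 fold change was 0.36 (95% interval from -0.05 to 0.77, edgeR adjusted p = 0.154). It was 0.13 without guadecitabine replicate 1 and 0.47 without vehicle replicate 3 (edgeR adjusted p = 0.502 and 0.0812).

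GSTP1, which couples glutathione to electrophiles, was by far the most highly expressed member. It had 14415, 14240 and 15551 reads in vehicle and 17382, 10424 and 16861 reads after guadecitabine. Guadecitabine replicate 1, at 785 CPM, lay within the range of the vehicle libraries, 667 to 839 CPM, and guadecitabine replicate 2 was the highest at 1184 CPM. The log2 fold change of 0.36 (95% interval from 0.01 to 0.71) was not called (edgeR adjusted p = 0.0959, unadjusted p = 0.0439). It was called without guadecitabine replicate 1 (log2 fold change 0.49, edgeR adjusted p = 0.0239). Without vehicle replicate 3 the log2 fold change was 0.28 (edgeR adjusted p = 0.197).

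**Figure D4:**
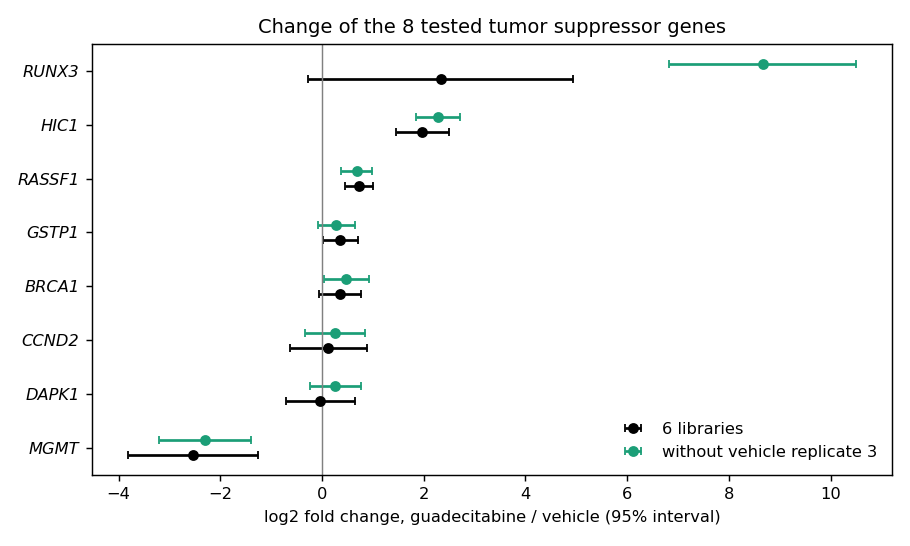
Log2 fold change of guadecitabine over vehicle (x axis) with its 95% interval for the 8 tested genes, from the 6 libraries (black) and without vehicle replicate 3 (green). RUNX3 moves from 2.33 to a fitted 8.66, a value that depends on the prior count because the other vehicle libraries have 0 reads, while HIC1, RASSF1 and MGMT stay on the same side of 0.

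The members divided by their vehicle level as follows. RASSF1, GSTP1 and BRCA1 were at 10 CPM or more in each vehicle library and were taken as expressed. No member was under 1 CPM in each of the 3 vehicle libraries (0 of 9), but RARB and RUNX3 were silent by this limit in vehicle replicates 1 and 2. DAPK1, CCND2, HIC1 and MGMT lay in between. Of the 3 expressed genes 1 was called higher and 0 lower, and of the 4 genes at low levels 1 was called higher and 1 lower. Over all genes tested at any level, 19.3% were higher and 18.4% lower, and shares within each level were not computed. Of the 2 genes silent in vehicle replicates 1 and 2, RUNX3 was called higher without vehicle replicate 3 and RARB was not tested. The vehicle level enters the fold change, so that this division is a description.

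Per kb of counted exon, the order in vehicle was GSTP1 at 791 CPM per kb, RASSF1 at 34.3, BRCA1 at 1.92, HIC1 at 1.42, MGMT at 1.38, DAPK1 at 0.688, CCND2 at 0.398, RARB at 0.154 and RUNX3 at 0.132. The ranges of libraries overlapped between BRCA1 and HIC1, between HIC1 and MGMT, between CCND2 and RARB, and between RARB and RUNX3, so that the order of these neighbors is not fixed by the data. After guadecitabine HIC1, at 5.65 CPM per kb, stood above BRCA1, at 2.46, with no overlap between their libraries. RUNX3 reached 0.713 CPM per kb, within the range of DAPK1, while MGMT fell to 0.226 CPM per kb and only RARB, at 0.0664, was lower.

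Other genes reported with promoter methylation in carcinomas moved in both directions. Of 56 genes on a list, 52 were in the table and 37 were tested. Of the 37, 11 were called higher (29.7%) and 10 lower (27.0%), with a median log2 fold change of 0.19. Over all genes tested, 19.3% were higher and 18.4% lower. The untested genes in the table were removed by the filter on low counts and had at most 8 reads in each guadecitabine library. These shares therefore leave out genes that stayed near-silent. Genes near-silent in vehicle replicates 1 and 2, such as GREM1, CDH13 and TWIST1, could enter the test only through the guadecitabine libraries. The filter thus favors rises in the share called higher and in the median. It was the same for all genes tested. Leaving out vehicle replicate 3 gave 13 higher and 10 lower, where 22.6% and 19.4% of all genes tested were higher and lower. The 5 largest rises among called genes with at least 100 counts on average and no overlap between groups began with GREM1, a BMP antagonist, with a log2 fold change of 6.96, CDH13, an atypical cadherin, with 4.30, and the WNT antagonist DKK3, with 3.68. TFPI2, a protease inhibitor, rose by 3.22 and the WNT antagonist SFRP1 by 2.54 on the log2 scale. CDH13 had 1, 0 and 72 reads in vehicle and 484, 184 and 465 reads after guadecitabine, and GREM1 had 0, 0 and 35 against 1753, 634 and 1182. Like RUNX3, both had their vehicle reads almost only in replicate 3, but their levels after guadecitabine were higher. Without that library GREM1 was at least 432-fold higher against the floor of 3 counts per library. CDH13 then had 1 read in vehicle and a ratio of 833, with an exact 95% interval from 149 to 32910 that covers counting error only. The log2 fold changes of SFRP1 and DKK3 were then 3.57 and 4.27, and all 4 genes stayed called higher. TWIST1, named here after its values were seen, had a like pattern to RUNX3, with 0, 0 and 54 reads in vehicle and 67, 33 and 53 after guadecitabine, and was not called (edgeR adjusted p = 0.212). As for RUNX3, TWIST1 was called higher without vehicle replicate 3 (edgeR adjusted p = 1.94e-05), by at least 19.3-fold against the floor. It too then passed the filter only through the guadecitabine libraries, so that a fall could not have been called. The largest falls by the same rule were TP73, a relative of p53, with a log2 fold change of -1.95, the mitophagy receptor BNIP3, with -1.05, the CDK inhibitor CDKN1C, with -0.73, SEPT9, a septin, with -0.59, and the inflammasome adaptor PYCARD, with -0.57. ID4 and CDH1, named after their values were seen, were also called lower, ID4 at -2.59 and, without vehicle replicate 3, at -1.90. CDH1, which encodes E-cadherin, was low, with 38, 25 and 87 reads in vehicle and 20, 6 and 13 after guadecitabine (log2 fold change -1.63, edgeR adjusted p = 0.0313).

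Partners and relatives of the members were counted by role. Over 9 lists with 71 tested genes, 11 were called higher (15.5%) and 15 lower (21.1%), with a median log2 fold change of -0.04. These shares can be read against 19.3% and 18.4% over all genes tested. Among 15 tested RASSF family members and Hippo kinase components, 5 were higher and 0 lower in edgeR. DESeq2 gave the same counts, and at an unadjusted p below 0.05 they were 6 and 0. The rises were in RASSF3, with a log2 fold change of 1.07, STK4, a Hippo kinase that RASSF1 binds, with 0.96, SAV1, RASSF5 and MOB1B. Another Hippo kinase, STK3, was at -0.00 (edgeR adjusted p = 0.997).

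None of the tested relatives of RUNX3 (0 of 3) and DAPK1 (0 of 4) was called higher in edgeR. DESeq2 called 0 of the RUNX relatives and 1 of the DAPK1 relatives higher, DAPK3, and 1 in each list was higher at an unadjusted p below 0.05. RUNX1 and RUNX2 were lower, with log2 fold changes of -0.43 and -0.67 (edgeR adjusted p = 0.0202 and 0.00222), and their common subunit CBFB was at 0.31 and not called (adjusted p = 0.0776). The difference between RUNX3 and these genes was not tested. DAPK2 and STK17A were lower, with log2 fold changes of -1.15 and -0.62 (adjusted p = 0.00874 and 0.00195), while STK17B was at 0.00. Of 4 tested retinoid receptors, RXRB was lower with a log2 fold change of -0.59 (adjusted p = 0.0427), and 3 were not called, including RXRA at -0.18 and RARG at -0.06.

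Among 10 tested genes of the cyclin D pathway, 3 were higher and 6 lower. The CDK inhibitor CDKN1A rose by 1.71 and the CDK inhibitor CDKN2C fell by 1.58 on the log2 scale (edgeR adjusted p = 4.06e-05 and 2.76e-05), while CDKN2D was at 0.01. Unlike CCND2, the other D cyclins were called, CCND1 at -0.72 and CCND3 at 0.50, both named here after their values were seen. CDKN2A and CDKN2B were not analysed here.

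Of 8 tested genes of alkylation and mismatch repair beside MGMT, 0 were called in edgeR. At an unadjusted p below 0.05, 0 were higher and 1, MSH6, was lower, and DESeq2 called the same gene lower. MSH6 and MPG, an alkyl base glycosylase, came closest, with log2 fold changes of -0.41 and -0.48 (adjusted p = 0.0865 and 0.113), and PMS2 was at -0.00. MSH6 and MPG were called lower without vehicle replicate 3. Of 12 tested glutathione transferases beside GSTP1, 2 were higher and 3 lower in edgeR. DESeq2 called 3 higher and 4 lower, and at an unadjusted p below 0.05, 3 were higher and 7 lower. GSTM2 and GSTM1, with log2 fold changes of -1.65 and -0.96 (adjusted p = 6.62e-05 and 0.000171), are close in sequence, so that their single counts are uncertain, and GSTO2 was at 0.30 and not called (adjusted p = 0.737). Without vehicle replicate 3 GSTO2 was called higher, with a log2 fold change of 1.27 (adjusted p = 0.017), and 3 genes of this list were higher and 3 lower. Of 11 tested BRCA1 partner genes, 1 was higher, RBBP8, the end resection factor CtIP, with a log2 fold change of 0.86 (adjusted p = 0.00413). DESeq2 also called 1 higher and 0 lower, and at an unadjusted p below 0.05, 4 were higher and 1 lower. PALB2 was at -0.04. Of 4 HIC1 partner genes, 0 were called higher in edgeR and DESeq2 and 1 was higher at an unadjusted p below 0.05. The corepressor CTBP1 was lower at -0.44 (adjusted p = 0.0187), CTBP2 was at 0.02, and SIRT1, a gene that HIC1 is known to repress, was at 0.45 and not called (adjusted p = 0.0576).

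**Figure D5:**
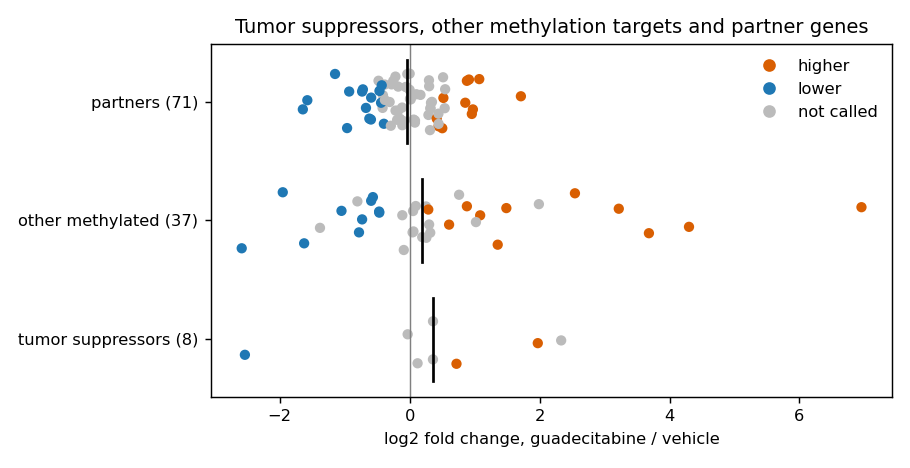
Log2 fold change of guadecitabine over vehicle (x axis) for the 8 tested tumor suppressor genes, 37 other genes reported with promoter methylation and 71 partner genes, each point 1 gene, colored by its call in edgeR, with the median of each group as a black line. The medians are 0.36, 0.19 and -0.04, and the other methylation targets spread from -2.59 to 6.96.

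Of the other genes listed as neighbors, NBR1, on the chromosome of BRCA1, was at a log2 fold change of 0.20. MKI67, on the chromosome arm of MGMT, was at -0.21. Neither was called (edgeR adjusted p = 0.152 and 0.272). They are not the nearest counted transcripts, which were RND2 for BRCA1 and EBF3 for MGMT, 12253 and 67712 bp away.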

How the data were processed

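RNA sequencing counts of 6 MDA-MB-231 libraries were grouped by their labels into vehicle and guadecitabine, with 3 replicates each. The authors aligned reads to hg19 with STAR 2.3.1z and deposited raw counts of exon reads per RefSeq transcript, counted with iRNA-seq and not normalized. The submitters' processing notes also name DESeq2. The deposited table further holds regularized log values on the log2 scale, the exon length, a mean signal, and the authors' own log2 fold change, test score, p-value and adjusted p-value, none of which was used except the length. Whether the counting used strand, and how reads with several matches were treated, is not given in the sources used here.

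Counts were filtered by filterByExpr of edgeR 4.0.16 (R 4.3.3, minimum count 10), normalized by TMM and tested by the quasi-likelihood test without a block, with Benjamini-Hochberg adjustment over 13322 genes. Standard errors came from the F statistic, and 95% intervals from the moderated degrees of freedom. The fit was tested on simulated counts. No pair of libraries held identical counts (0 pairs). P-values of edgeR set the difference between groups against the spread between libraries, moderated across genes, within this single line. Intervals of summed reads and the floor of 3 counts cover counting error only.

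CpG sites were counted on GRCh37 with Python 3.11.15, and starts came from GENCODE release 44. Starts within 500 bp were merged. Exact permutation tests were two-sided.

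The members and gene lists were chosen with earlier results of these data known. Beside every member, the text names from each partner list the 2 genes with the lowest adjusted p and the 1 with the highest p, the tested neighbors, and from the list of other methylation targets the 5 largest rises and falls among called genes with a mean of at least 100 counts and no overlap between groups. Other named genes are those that complete a count of 5 or fewer, and genes said to be named after their values were seen lie outside this rule. Alternatives were a replicate block, DESeq2 1.42.0, its size factors, library totals, removal of the filter, a stricter one (10 counts or more in each sample), a test against a 2-fold change, and each library left out. Immunohistochemistry, xenografts and methylation were not analysed here. A few items that this rule would name are not reported here.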

Additional observations from a re-analysis of the deposited data

How the results depend on the processing

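HIC1 stayed called higher under each of 13 alternatives, with a log2 fold change from 1.84 to 2.28, and RASSF1 under each except a fold threshold of 2. MGMT was no longer called with a fold threshold of 2 (log2 fold change -2.54) or without guadecitabine replicate 3, and at least 10 counts in every sample removed it from the test. GSTP1 was called on library totals without a composition factor (0.39) and without guadecitabine replicate 1. RASSF1, at 0.72, did not pass the fold threshold of 2, which left 1 member higher and 0 lower, 435 genes higher and 261 lower over all genes, 6 and 1 other methylation targets, and 1 and 2 partner genes. At least 10 counts in every sample left 0 members lower. By CPM per kb in place of CPM, 4 members were silent and 3 low, and by vehicle replicates 1 and 2 alone 2 were silent.

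Over the fits that each lacked 1 library, log2 fold changes ranged from -2.92 to -2.30 for MGMT, from 0.20 to 0.49 for GSTP1 and from 1.78 to 8.66 for RUNX3, the last without vehicle replicate 3. Between 1706 and 3002 genes were higher and between 1629 and 2575 lower, the lowest counts being without guadecitabine replicate 3. Members called lower ranged from 0 to 1, other methylation targets called lower from 5 to 10, and partner genes called lower from 9, without vehicle replicate 1, to 18. With the replicate number as a block, RUNX3 was at 3.72 (adjusted p = 0.0516 from edgeR), 2424 genes were higher and 2230 lower, and no call of a member changed. Across genes, the departures from the group means of libraries that share a number correlated at -0.050, 0.049 and -0.037. These values show no shared shift by replicate number, but cannot tell whether the libraries were paired by experiment. The causes of these shifts were not tested. Of 212 alternative values, 189 were counted as unchanged, because they kept their side of the threshold or stayed within the allowed range. A change of direction was not counted where neither fit was called. DAPK1, for example, was at -0.03 in the main fit and 0.26 without vehicle replicate 3. Genes with a few reads per library, as RARB outside vehicle replicate 3, are limited by depth.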

Other observations

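The number of CpG sites at the counted start did not set apart the genes called higher across the table. Of 2910 tested genes with at least 35 CpG sites in the 300 bp window, the level of HIC1, 18.8% were called higher and 21.1% lower. Of 2060 tested genes with under 10 CpG sites, 21.8% were called higher and 21.0% lower. These are shares over genes, which are not independent, and the window is that of the counted transcript only.

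Of 13 markers of blood, endothelial, fibroblast and liver cells, 11 were in the table and 6 were tested. COL1A1, a fibroblast marker, was called higher, with 132, 146 and 380 reads in vehicle and 2175, 1143 and 1939 after guadecitabine. PDGFRB was called lower. The summed level of the 11 markers was 39.7 to 69.8 CPM in vehicle and 126 to 160 CPM after guadecitabine. COL1A1 carried this rise, and the other 10 markers summed to 31.1 to 53.5 CPM in vehicle and 27.3 to 30.2 CPM after guadecitabine, lower in each guadecitabine library. PTPRC, CDH5 and ALB had at most 4 reads in each library other than vehicle replicate 3, where they had 11 to 36. Other markers of the list had reads in each library, CD14 from 91 to 257, PECAM1 from 39 to 104 and ACTA2 from 30 to 209. COL1A1 is also made by cancer cells, and the part of other cells was not tested.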
